A study of Mus musculus with 4 samples.

Results

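Troponin is the calcium switch of striated muscle, and 7 of the genes that encode its subunits were followed here in the limbs of mouse embryos. They were taken by name from the 26252 genes and transcript clusters to which the deposited tags were assigned: Tnnt3, Tnni2 and Tnnc2 are the fast skeletal forms, Tnnt1, Tnni1 and Tnnc1 the slow forms, and Tnnt2 is the cardiac form of troponin T. All 7 were detected in all 4 libraries and passed the filter on low counts. The tag counts of a gene were summed over every tag that the table assigned to it. For Tnnc1 the current Ensembl identifier, ENSMUSG00000091898, carried a single tag without counts. Its counts stood under the identifier ENSMUSG00000021909, where 99.95% of them matched transcripts of Tnnc1 and of no other gene, and that entry was used. Tnni3, the cardiac troponin I gene, is outside the set and is given by its counts alone.

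A troponin complex holds one subunit of each of the types T, I and C. Troponin C binds calcium, troponin I holds back the contact of actin with myosin while calcium is low, and troponin T anchors the complex to tropomyosin on the thin filament. Fast and slow fibres use different genes for T, I and C, except that Tnnc1 serves slow skeletal and heart muscle alike, and Tnnt2 is known to be used for a time in immature skeletal muscle.

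The libraries came from forelimbs and hindlimbs of CD1 mice, an outbred strain, at E14.5. Each limb type had 2 biological replicates, no group was treated or carried an allele, and the labels state neither the number of embryos in a sample nor whether equal replicate numbers mark the same animals. Whole limbs were used, so muscle is one tissue among cartilage, skin, blood and others, and fewer muscle cells cannot be told apart from less RNA per muscle cell. In this assay (DGE-SAGE) cDNA is cut at CATG, the site of the enzyme NlaIII, and the 17 bases that follow are read as a tag. A transcript gives about 1 tag whatever its length, so CPM values (counts scaled by library size, with TMM factors) of different genes are compared here without a division by length.

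The forelimb libraries (replicates 1 and 2, in this order throughout) totalled 4695786 and 1829647 tags, and the hindlimb libraries 5325279 and 5015295. A single count amounted to 0.621 CPM in the shallowest library, the second of forelimb, and to between 0.224 and 0.256 CPM elsewhere. The mean GC content of the counted tags was 40.6% and 40.2% in the forelimb libraries and 46.3% and 50.4% in the hindlimb libraries. This gap is aligned with limb type and touches every fold change below, so those of the troponin genes are also given with a tag-sequence offset. The offset is a per-library effect of a tag's bases, estimated from differences between tags of the same gene over 42831 tags of 9913 genes. The share of the variation in those differences that it took up was 0.372 to 0.423 by library. Values with the offset are thus only partly adjusted for tag sequence or other differences between tags. Among 13718 genes tested, 2285 passed an adjusted p of 0.05 (edgeR, quasi-likelihood test) without the offset, and 30 passed with it.

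Each troponin gene except Tnnc1 was measured through 1 main tag and minor ones, and 30 tags had at least 20 counts. The main tags are shown first, since they decide what each gene's total reports. CATG in capitals is the NlaIII site, and the 17 bases after it were sequenced.
Tnnc2: CATGtgacagaagaggagatc
Tnnt3: CATGggtgccaactacagcag
Tnni2: CATGgagggccggaagaaaat
Tnnt1: CATGacctgctgtgtggagcc
Tnni1: CATGctggggttatccagtca
Tnnt2: CATGatgcactttggagggta
Tnnc1, last site: CATGaagggtgtggagtagat
Tnnc1, upstream site: CATGaaggacggtgacaagaa

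Positions are those of GENCODE M21 on GRCm38. The Tnnc2 tag lies in a coding exon on the minus strand at chr2:164777527-164777547 and held 91.0% of the gene's counts. That of Tnnt3 lies in a coding exon at chr7:142512116-142512136, with 78.3% of the counts. The Tnni2 tag lies in the coding exon at chr7:142444271-142444291 and held 53.4%. In Tnnt1 and Tnni1 the main tags lie in the 3′ UTR, at chr7:4504723-4504743 on the minus strand with 62.3% of the counts and at chr1:135810832-135810852 with 76.3%. The Tnnt2 tag lies in a coding exon at chr1:135849430-135849450 and held 85.1%. Tnnc1 alone had a pair of tags of almost equal size: the one across the stop codon, at chr14:31211519-31211539, held 41.9%, and the one at the preceding CATG, at chr14:31211370-31211390, held 41.8%.

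The genes themselves are protein coding and lie partly in pairs of a troponin I with a troponin T. Tnni2 (chr7:142441808-142444410, plus strand) and Tnnt3 (chr7:142498836-142516009, plus strand), both fast, are 54.4 kb apart. Tnni1 (chr1:135779434-135810989, plus strand), a slow gene, and Tnnt2 (chr1:135836354-135852260, plus strand), the cardiac gene, are 25.4 kb apart. Tnnt1 (chr7:4504570-4516382, minus strand) neighbours Tnni3 at 1.92 kb. The troponin C genes stand elsewhere, Tnnc1 at chr14:31208312-31211729 on the plus strand and Tnnc2 at chr2:164777161-164779967 on the minus strand.

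Hindlimb was compared with forelimb, the one contrast of the design. Of the 7 genes, Tnnc2, fast troponin C, was higher in forelimb, and the other 6 did not pass the test. Over all genes 16.7% passed in either direction and 7.08% were higher in forelimb, so 1 of 7 stands near the background. In Tnnc1, Tnnc2 and Tnnt2 the libraries of the limb types did not overlap, each time with forelimb above hindlimb. That held for 62.8% of all genes in either direction and for 31.4% with forelimb higher, against 3 of 7 here. The median log2 fold change (hindlimb over forelimb, so negative values are higher in forelimb) was -0.35 over the 7 genes and -0.03 over all genes tested. With the tag-sequence offset all 7 values were below 0, their median was -0.76 against -0.02 over all genes, and none passed (edgeR, with 4 at an unadjusted p under 0.05), where 0.219% of all genes did. Summed over 8 skeletal muscle markers the level was 6517 and 5124 CPM in forelimb and 2239 and 2043 CPM in hindlimb, mostly from the actins Acta1 and Actc1. The other 6 markers summed to 514 and 598 CPM in forelimb and 351 and 381 CPM in hindlimb, with Des (0.55) and Myod1 (0.80) above 0 in log2 fold change and neither called. The part of these differences in the troponin values was not tested.

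**Figure D1:**
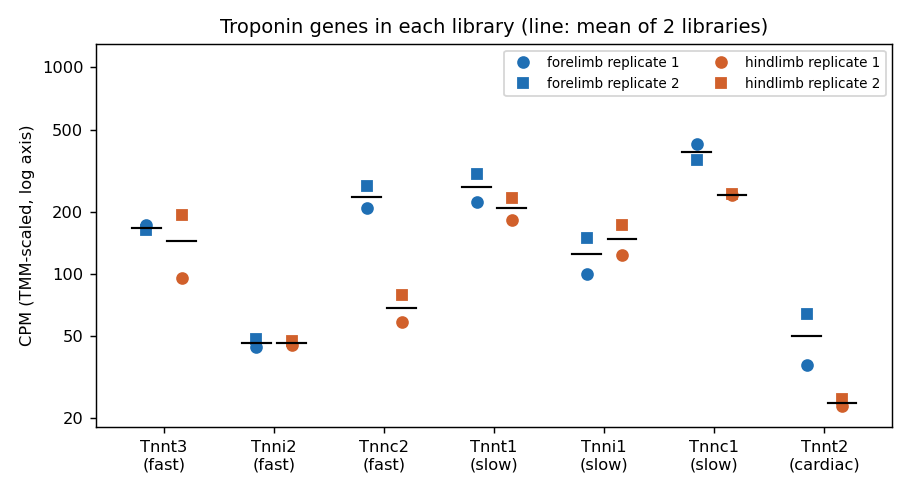
TMM-scaled CPM (log axis) of each troponin gene in the 4 libraries, circles for replicate 1, squares for replicate 2, blue for forelimb and orange for hindlimb, with a line at the mean of the 2 libraries. Tnnc2 falls from a mean of 237 CPM in forelimb to 68.6 CPM in hindlimb, while Tnni2 stays at 46.4 and 46.3 CPM.

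Fast troponin C was the gene called. Tnnc2 had 810 and 428 counts in the forelimb libraries and 262 and 310 in the hindlimb libraries, or 207 and 266 CPM against 58.6 and 78.6 CPM. Both forelimb libraries were thus above both hindlimb libraries, although the second forelimb library was the shallowest of the 4. The means were 237 ± 41.4 CPM in forelimb and 68.6 ± 14.2 CPM in hindlimb (SD, n = 2 each). The log2 fold change was -1.78 ± 0.32 (SE), a level 3.45 times higher in forelimb, with an adjusted p of 0.00246 (edgeR). With the tag-sequence offset it was -0.99 ± 0.24 and no longer passed, with an adjusted p of 0.123 (edgeR). Leaving out each library in turn left it called, between -1.995 and -1.60.

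Tnnc1, the troponin C of slow and heart muscle, was the most abundant of the 7 genes in both limb types when all its tags were counted. Its counts were 1659 and 576 in forelimb and 1082 and 957 in hindlimb. In CPM these were 425 and 358 against 242 and 243, so the groups did not overlap and the hindlimb libraries lay close together. The log2 fold change was -0.69 ± 0.30, with an unadjusted p of 0.0354 and an adjusted p of 0.124 (edgeR), which missed the threshold. DESeq2, by which 18.1% of all genes passed, called it at an adjusted p of 0.0455. The value rested on the choice of tag. The last-site tag shown above had 622, 144, 460 and 565 counts in forelimb 1 and 2 and hindlimb 1 and 2, and its log2 ratio of mean CPM was -0.02. Its upstream neighbour had 787, 296, 410 and 293 counts, and a log2 ratio of -1.22. Both tags have the same GC content, 47.1%. The fitted effect of sequence on the log2 ratio was -0.42 for the last-site tag and -0.70 for its neighbour. Counted by its most abundant tag, Tnnc1 had a log2 fold change of -0.09 (edgeR).

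Among the troponin T genes, none passed the test. Slow Tnnt1 had 873 and 491 counts in forelimb and 815 and 919 in hindlimb, or 224 and 305 CPM against 182 and 233 CPM. The ranges of the limb types overlapped, and the log2 fold change was -0.35 ± 0.32 (adjusted p = 0.484, edgeR). Fast Tnnt3 had 670 and 262 counts in forelimb and 428 and 762 in hindlimb, or 172 and 163 CPM against 95.7 and 193 CPM. Its forelimb values lay inside the spread of the hindlimb pair, whose SD of 69.0 CPM was the widest of any of the 7 genes, and the log2 fold change was -0.21 ± 0.35 (adjusted p = 0.716, edgeR). Without hindlimb replicate 1 its sign turned, to 0.20.

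Cardiac Tnnt2 was a minor troponin T in these limbs. It had 141 and 103 counts in forelimb and 102 and 97 in hindlimb, or 36.1 and 64.0 CPM against 22.8 and 24.6 CPM. Both forelimb libraries were above both hindlimb libraries, but the forelimb libraries also differed from each other by more than the gap between the limb types. The log2 fold change was -1.06 ± 0.39, with an unadjusted p of 0.0144 and an adjusted p of 0.0689 (edgeR). Counted by its most abundant tag it passed at -1.63 (adjusted p = 0.0306, with 23.5% of all genes passing, edgeR). After a single random thinning to the smallest library it passed at -1.51 (adjusted p = 0.0105, with 21.9% passing, edgeR). Other random draws were not made. Heart muscle was little represented, since the sum over 8 of its markers was 27.4 and 27.3 CPM in forelimb and 9.61 and 22.1 CPM in hindlimb. Nppa and Nkx2-5 were at 0 in every library, and Myh6, which slow skeletal fibres can also hold, made up 26.1 and 23.6 CPM of the forelimb sums and 8.27 and 14.45 CPM of the hindlimb sums. Tnni3, cardiac troponin I, had 0, 1, 4 and 18 counts in forelimb 1 and 2 and hindlimb 1 and 2, too few for the test.

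Neither troponin I gene passed. Fast Tnni2 had 173 and 78 counts in forelimb and 202 and 187 in hindlimb, or 44.3 and 48.5 CPM against 45.2 and 47.4 CPM. The hindlimb values lay between the forelimb values, and the log2 fold change was 0.00 ± 0.35 (adjusted p = 0.9997, edgeR). Slow Tnni1 had 389 and 241 counts in forelimb and 551 and 678 in hindlimb, or 99.6 and 150 CPM against 123 and 172 CPM. These ranges overlapped, and the log2 fold change was 0.25 ± 0.33 (adjusted p = 0.648, edgeR). The offset moved both below 0, Tnni2 to -0.76 ± 0.27 (adjusted p = 0.308, edgeR) and Tnni1 to -1.13 ± 0.25 (adjusted p = 0.0997, edgeR).

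**Figure D2:**
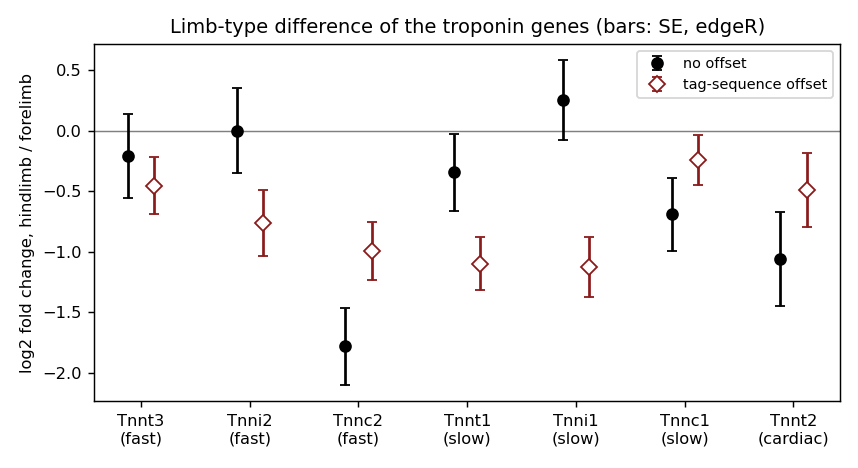
Log2 fold change (hindlimb over forelimb, edgeR) of each troponin gene without and with the tag-sequence offset, with bars of 1 SE on 4 libraries. Without the offset 5 of 7 values are below 0, and with it 7 of 7 are, with Tnnc2 moving from -1.78 to -0.99 and Tnni1 from 0.25 to -1.13.

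Tnnt1 came closest to the threshold once the offset was applied, at -1.10 ± 0.22 with an adjusted p of 0.0549 (edgeR). Tnnt3, at -0.46 ± 0.24 (adjusted p = 0.519), Tnnt2, at -0.49 ± 0.30 (adjusted p = 0.612), and Tnnc1, at -0.25 ± 0.21 (adjusted p = 0.729), stayed further from it (edgeR). The offset thus lowered the values of Tnnt1, Tnni1, Tnni2 and Tnnt3 and raised those of Tnnc1, Tnnc2 and Tnnt2 towards 0.

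With all tags counted, the order of levels was led by Tnnc1 and Tnnt1 in both limb types. In forelimb Tnnc1 (391 CPM) was followed by Tnnt1 (264 CPM) and Tnnc2 (237 CPM), whose libraries overlapped, then by Tnnt3 (167 CPM) and Tnni1 (125 CPM). Tnnt2 (50.1 CPM) and Tnni2 (46.4 CPM), the lowest, overlapped as well. In hindlimb Tnnc1 (242 CPM) and Tnnt1 (208 CPM) came before Tnni1 (147.5 CPM) and Tnnt3 (144 CPM), which overlapped. Tnnc2, at 68.6 CPM, now stood below these 4 and above Tnni2 (46.3 CPM) and Tnnt2 (23.7 CPM). Neighbours not named as overlapping had separate libraries, though 2 libraries each leave such an order loosely fixed. By the most abundant tag alone the lead passed to Tnnc2 in forelimb, at 193 and 249 CPM. The last-site tag of Tnnc1 had 159 and 89.5 CPM there, and was chosen over its upstream neighbour by 1791 counts to 1786. That neighbour had 202 and 184 CPM in forelimb, above the Tnnc2 tag in replicate 1 and below it in replicate 2. In hindlimb Tnnt1 had 111 and 168 CPM by its main tag against 103 and 143 CPM for the last-site tag of Tnnc1, with overlap.

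Summed by subunit with all tags counted, troponin C exceeded troponin T in both forelimb libraries and in neither hindlimb library. In hindlimb replicate 1 the sums were almost equal, at 1344 counts for troponin C and 1345 for troponin T. Troponin C genes together reached 632 and 624 CPM in forelimb and 300.5 and 321 CPM in hindlimb, without overlap. Troponin T genes reached 431 and 532 CPM against 301 and 451 CPM, and troponin I genes 144 and 198 CPM against 168 and 219 CPM, both with overlap. Troponin I was therefore the least represented subunit in each library. All 7 genes summed to 1207 and 1354 CPM in forelimb and to 769.5 and 991 CPM in hindlimb. The 3 slow genes, at 748 and 813 CPM against 547 and 647.5 CPM, exceeded the 3 fast genes, at 423 and 477 CPM against 199 and 319 CPM, in every library. Both orders depended on which tags were counted. By tags at the last NlaIII site alone, troponin T exceeded troponin C in both forelimb libraries as well. By the most abundant tag of each gene, the fast genes together exceeded the slow ones in forelimb replicate 2.

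The balance of fast and slow forms was then taken within each library, where the share of a subunit does not depend on how the libraries are scaled. With all tags counted, slow forms made up the larger part of each subunit in all 4 libraries. The fast share of troponin C was 32.8% (95% Wilson interval 31.0 to 34.7) and 42.6% (39.6 to 45.7) in forelimb. In hindlimb it was 19.5% (17.5 to 21.7) and 24.5% (22.2 to 26.9), so the limb types were apart. The difference in the log2 ratio of fast to slow, hindlimb minus forelimb, was -1.10, with an exact two-sided permutation p of 0.333, the smallest that 2 against 2 libraries allow. Intervals cover counting error only. They may be too narrow even for that, since PCR copies of a molecule are not told apart.

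For troponin I the fast share was 30.8% (27.1 to 34.7) and 24.5% (20.1 to 29.5) in forelimb and 26.8% (23.8 to 30.1) and 21.6% (19.0 to 24.5) in hindlimb. The limb types overlapped, and the log2 ratio differed by -0.26 (exact two-sided permutation p = 0.667). For troponin T the share of Tnnt3 was 39.8% (37.5 to 42.1) and 30.6% (27.6 to 33.8) in forelimb and 31.8% (29.4 to 34.4) and 42.9% (40.6 to 45.2) in hindlimb. Replicates of a limb type differed here by more than the limb types did, and the log2 ratio differed by 0.13 (exact two-sided permutation p = 0.667). Tnnt1 held 51.8% and 57.4% of troponin T in forelimb and 60.6% and 51.7% in hindlimb. Tnnt2 held 8.37% and 12.03% in forelimb and 7.58% and 5.46% in hindlimb, again with both forelimb values above the hindlimb ones.

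**Figure D3:**
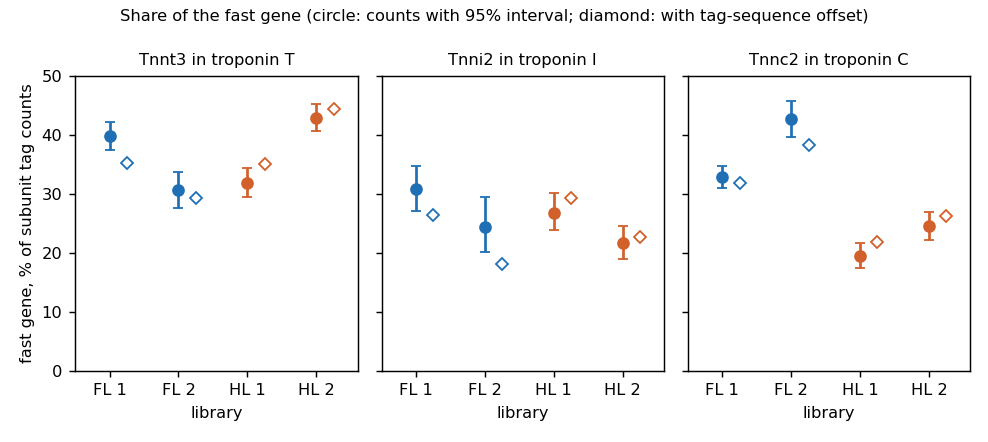
Percent of each subunit's tag counts that came from the fast gene (Tnnt3 of T, Tnni2 of I, Tnnc2 of C) in each library, with 95% Wilson intervals. The forelimb libraries stand above the hindlimb libraries for troponin C (32.8% and 42.6% against 19.5% and 24.5%) and overlap with them for T and I.

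With the tag-sequence offset the fast share of troponin C was 31.8% and 38.3% in forelimb and 21.8% and 26.2% in hindlimb, still apart. By the most abundant tag of each gene it was 54.8% and 73.6% against 34.0% and 31.3%, also apart. In forelimb fast troponin C then exceeded slow, with the last-site tag of Tnnc1 chosen by 1791 counts to 1786. The upstream tag had 787 and 296 counts in forelimb, so the main Tnnc2 tag (753 and 401) exceeded it in replicate 2 only. The absolute share of troponin C thus depended on which tags of Tnnc1 were counted, and the order of the limb types did not. For troponin T the offset gave 35.3% and 29.2% in forelimb and 35.1% and 44.3% in hindlimb, with overlap. For troponin I it gave 26.3% and 18.1% against 29.3% and 22.7%, with overlap and with the sign of the difference turned.

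In 5 of the 7 genes, tags of 1 gene went in different directions, in Tnnt1 through an antisense tag alone. All 5 named tags of Tnnc1 and all 3 of Tnnc2 were lower in hindlimb, the latter between -1.90 and -0.14 on the log2 scale. Of the 30 tags, 21 were lower and 9 higher in hindlimb by their mean CPM. In 13 tags both hindlimb libraries were below both forelimb libraries, in 5 they were above, and 12 overlapped. In Tnni2 the main tag had 66 and 23 counts in forelimb and 136 and 117 in hindlimb, a log2 ratio of 0.95. A tag further upstream in the same gene, at chr7:142443914-142443934, had 63 and 41 counts in forelimb and 18 and 5 in hindlimb, a log2 ratio of -2.97. The near-zero change of Tnni2 was a sum of such opposed tags. The tags below, chosen after their values had been seen, show how tags of 1 gene parted, again with the NlaIII site in capitals.
Tnni2, lower in hindlimb: CATGaaccagaagctatttga
Tnni2, higher in hindlimb: CATGctgaaggcgctgctggg
Tnnt1, lower in hindlimb: CATGgagaaagacttactgga
Tnnt3, lower in hindlimb: CATGaagaagaaaaaggctct
Tnnt2, higher in hindlimb: CATGcccaacttggtgccacc
Tnni1, higher in hindlimb: CATGctccgagccctactggg

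The 3 tags lower in hindlimb are rich in A and T and the 3 higher ones in G and C. The Tnnt1 tag, with 41.2% GC, had 76 and 61 counts in forelimb and 31 and 12 in hindlimb (log2 ratio -2.52), while the main Tnnt1 tag, with 64.7% GC, had 494, 279, 495 and 662 (log2 ratio -0.11). The Tnnt3 tag, with 35.3% GC, had 70, 50, 35 and 6 counts, a log2 ratio of -2.39, against -0.05 for the main tag. On the other side, the Tnnt2 tag, with 64.7% GC, had 7, 0, 17 and 26 counts, a log2 ratio of 2.54, against -1.54 for the main tag of the gene. The Tnni1 tag, with 70.6% GC, had 11, 4, 40 and 31 counts (log2 ratio 1.66), and that of Tnni2, also with 70.6% GC, had 16, 6, 29 and 35 (0.97).

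Across the 30 tags the log2 ratio followed the GC content, with a Pearson r of 0.68 and a Spearman rho of 0.66. The tags share 4 libraries and 7 genes, so this is a description, and over 46583 tags of all genes r was 0.56. All 4 troponin tags under 45% GC were lower in hindlimb, with a median log2 ratio of -2.46 against -0.77 over all tags of that class. Of the 7 tags over 60% GC, 5 were higher in hindlimb, with a median of 0.97 against 1.91 over all such tags. The main tag of Tnnc2, at 47.1% GC, had 753 and 401 counts in forelimb and 237 and 257 in hindlimb, a log2 ratio of -1.90. The fitted effect of its sequence on that ratio was -0.97.

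**Figure D4:**
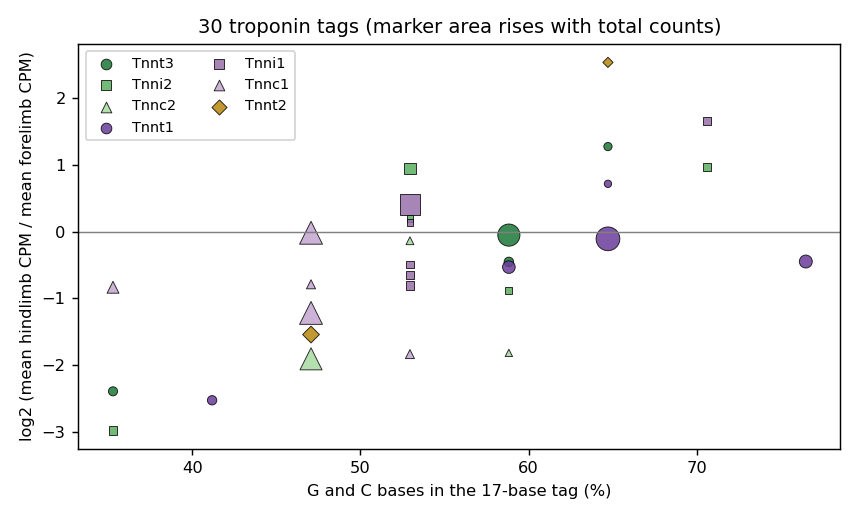
Log2 ratio of mean CPM (hindlimb over forelimb) against GC percent of the 17 bases for the 30 troponin tags with at least 20 counts, by gene. The 4 tags under 45% GC are all below 0 with a median of -2.46, and 5 of the 7 tags over 60% GC are above 0.

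The share of counts from tags at a last CATG, by the annotated transcripts, also differed between the genes. In Tnnt1, Tnnt2, Tnnt3, Tnnc2 and Tnni1, at most 7.62% of the counts came from tags that are at the last CATG of no annotated transcript. In Tnnc1 that share was 58.0% and in Tnni2 46.6%, so a large part of their counts came from CATG sites upstream of the last one. A tag was taken as last-site if it was so in any annotated transcript, and the share therefore depends on the annotation. The Tnnt1 tags with 15.3% and 14.3% of its counts were last in 4 of 8 and 2 of 10 transcripts that hold them. Tags assigned to the opposite strand held 2.32% of the counts of Tnnt1 and 0.718% of those of Tnnc2.

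Tnnt3 is known for extensive alternative splicing, and GENCODE M21 lists 27 transcripts of it. One of its tags marks a 3′ exon that only some of them hold.
Tnnt3, 3′ exon: CATGactgtccgggccagagt

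This tag lies at chr7:142513667-142513687 and is the last site in all 7 transcripts that contain it. The main Tnnt3 tag occurs in 24 transcripts and is the last site in 17. The 3′ exon tag had 25 and 2 counts in forelimb and 51 and 28 in hindlimb. Its share of the counts of both tags was 4.55% (Wilson interval 3.10 to 6.64) and 1.12% (0.309 to 4.004) in forelimb, and 14.8% (11.5 to 19.0) and 4.02% (2.79 to 5.74) in hindlimb. Hindlimb replicate 1 stood above the other 3 libraries, and the remaining hindlimb value lay between the forelimb values. The tag has 64.7% GC and the main tag 58.8%.

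The rest of the muscle programme was read from lists of genes, in counts and medians beside the background of 7.08% of genes higher in forelimb and 9.58% higher in hindlimb. Of 12 tested genes of the thin filament and its regulators, 5 were higher in forelimb, none in hindlimb, and the median log2 fold change was -0.57 (-0.61 with the offset). Acta2, also used below as a smooth muscle marker, was among the 5. Skeletal actin, Acta1, stood at 1980 and 1362 CPM in forelimb against 522.5 and 548 CPM, and its log2 fold change was -1.64 (adjusted p = 0.00347, edgeR). Neb, the giant protein along the thin filament, had 131 and 142 CPM against 46.1 and 35.2 CPM, at -1.74 (adjusted p = 0.00294, edgeR). Acta1 remained called with the offset, at -1.17 (adjusted p = 0.0179, edgeR), and Neb did not, at -0.54 (adjusted p = 0.483, edgeR). The count of 5 was 3 without forelimb replicate 2 and 1 with the offset. By the tag at the last NlaIII site alone, 3 were higher in forelimb and 2 in hindlimb.

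Of 10 tested fast fibre genes none passed, and none had an unadjusted p under 0.05 in edgeR, while DESeq2 called 0 as well. Their median was -0.36, and 7 of 10 were below 0. The most abundant, the fast myosin light chains Mylpf and Myl1, had log2 fold changes of -0.505 (adjusted p = 0.288) and -0.45 (adjusted p = 0.329) in edgeR. With the offset both passed, Mylpf at -1.30 (adjusted p = 0.0151) and Myl1 at -1.45 (adjusted p = 0.00635) in edgeR, and all 10 genes were below 0 with a median of -0.66. Of 12 slow fibre genes, 2 were higher in forelimb and the median was -0.58 (-0.88 with the offset, 12 of 12 below 0). Sln, sarcolipin, an inhibitor of the calcium pump, was at -1.41 (adjusted p = 0.00757, edgeR), with 136 and 117 CPM against 47.2 and 47.9 CPM, and remained called with the offset, at -1.45 (adjusted p = 0.0151, edgeR). Atp2a2, the slow calcium pump, was at -1.26 (adjusted p = 0.0219, edgeR). Without forelimb replicate 1 both lost the call, with adjusted p of 0.0876 and 0.104 (edgeR). Atp2a2 lost it as well without forelimb replicate 2 (adjusted p = 0.110) or hindlimb replicate 2 (adjusted p = 0.167), and with the offset (log2 fold change -0.44, adjusted p = 0.517).

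Embryonic and perinatal myosins with shared muscle genes had a median of -0.94 (-0.88 with the offset), with 5 of 13 higher in forelimb. Ldb3, a Z-disc protein, was at -2.09 (adjusted p = 0.00156, edgeR) and Myh8, perinatal myosin heavy chain, at -1.84 (adjusted p = 0.00218, edgeR). Both kept the call with the offset, at -1.89 (adjusted p = 0.00635) and -1.34 (adjusted p = 0.036) in edgeR. The count was 2 without forelimb replicate 1, 2 without forelimb replicate 2 and 2 with the offset. Among 16 tested regulators of muscle and fibre type genes, 2 were higher in forelimb and the median was -0.33 (-0.32 with the offset). Myf5, a myogenic transcription factor, was at -1.93 (adjusted p = 0.00447, edgeR) and Mef2c, a partner of the myogenic factors, at -0.99 (adjusted p = 0.035, edgeR). Neither passed with the offset, at -0.56 and -0.36, and Mef2c did not pass without forelimb replicate 1 (adjusted p = 0.191), forelimb replicate 2 (adjusted p = 0.184) or hindlimb replicate 2 (adjusted p = 0.103) in edgeR. With the replicate block the count of regulators higher in forelimb was 1, and by the most abundant tag it was 0. By that tag 1 gene each of the fast, slow, embryonic and regulator lists was higher in hindlimb, beside 13.7% of all genes. By the tag at the last NlaIII site alone, 1 slow fibre gene and 1 regulator were higher in hindlimb, beside 14.4%. Without the low-count filter 1 gene of the embryonic list was, beside 6.1%.

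**Figure D5:**
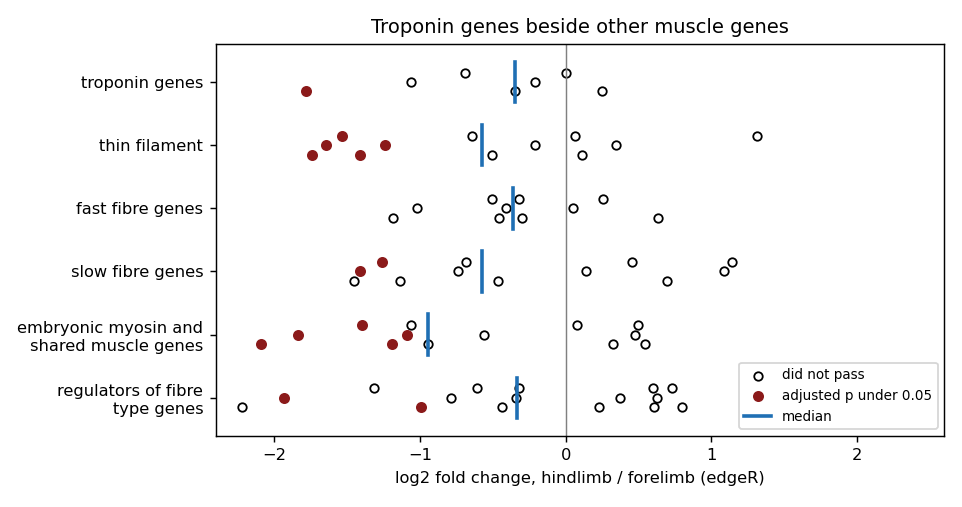
Log2 fold change (hindlimb over forelimb, edgeR) of each tested gene of the 7 troponin genes and 5 lists of muscle genes, filled where the adjusted p is under 0.05, with a bar at the list's median. No filled point lies above 0, and the medians run from -0.33 to -0.94.

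Troponin was then set against the skeletal muscle markers, of which 3 of 8 were called higher in forelimb, beside 7.08% of all genes. With the offset 1 of the 8 was, beside 0.131%. All 8 also stand in the lists above, so these calls repeat calls counted there. Per 100 counts of these markers the 7 troponin genes had 18.5 and 26.4 counts in forelimb and 34.4 and 48.5 in hindlimb. The actins Acta1 and Actc1, however, made up 92.1% and 88.3% of the marker counts in forelimb and 84.3% and 81.3% in hindlimb. Per 100 counts of the remaining 6 markers, a ratio chosen after these values had been seen, troponin had 235 and 226 counts in forelimb and 219 and 260 in hindlimb, and the limb types overlapped.

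Gene by gene, the marker scales differed from each other. Per 100 counts of all 8 markers, Tnnc2 had 3.18 and 5.19 counts in forelimb and 2.62 and 3.85 in hindlimb, with overlap, and Tnnt2 had 0.554 and 1.25 against 1.02 and 1.204, also with overlap. Tnnc1, at 6.52 and 6.98 against 10.8 and 11.9, was higher in both hindlimb libraries on that scale, as were Tnnt1, Tnnt3, Tnni1 and Tnni2. Per 100 counts of the 6 markers without actins, Tnnc2 had 40.4 and 44.4 counts in forelimb and 16.7 and 20.6 in hindlimb and was apart, as in CPM. Tnnc1 had 82.7 and 59.8 against 68.9 and 63.7, with overlap, whereas it had been apart in CPM. Tnni1, at 19.4 and 25.03 against 35.1 and 45.1, and Tnni2, at 8.62 and 8.10 against 12.9 and 12.4, were both higher in the hindlimb libraries. Tnnt1, at 43.5 and 51.0 against 51.9 and 61.1, was also higher in both hindlimb libraries, while Tnnt3, at 33.4 and 27.2 against 27.3 and 50.7, overlapped. Tnnt2 had 7.03 and 10.7 against 6.50 and 6.45. Directions thus depended on the scale for several genes. Tnni1 had the higher mean in hindlimb in CPM and on both marker scales, while Tnnt1 had it in forelimb in CPM and in hindlimb on both marker scales. These scales were all taken without the tag-sequence offset. With it the log2 fold change of Tnni1 was -1.13 (edgeR). Of the 8 markers, 7 were below 0 with the offset, among them Des at -0.50, and 6 without it.

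Among markers of other tissues, members of a list differed in direction. Cartilage markers summed to 2060 and 1773 CPM in forelimb and 2697 and 3809 CPM in hindlimb, but 1 of 4 was called in each direction, Col2a1 higher in hindlimb (log2 fold change 1.46) and Matn1 higher in forelimb (-1.26). Epidermal markers summed to 584 and 562 CPM against 737 and 858 CPM, again with 1 of 4 called in each direction, Krt14 at 1.04 and Trp63 at -1.15. Smooth muscle markers summed to 134 and 139 CPM against 99.3 and 102 CPM, with Acta2 at -1.41 called and Smtn at 0.51 not. Red cell markers summed to 11741 and 9335 CPM against 4764 and 5602 CPM, nearly all from Hbb-bs (-1.03, called), with Alas2 at 0.81 not called. With the offset none of these genes passed (edgeR), and Col2a1 stood at 0.15, Acta2 at 0.04 and Hbb-bs at -0.18. Their part in the levels of the troponin genes was not tested.

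Among 7357 genes with a mean of at least 20 CPM, those nearest to the mean profile of the fast troponin genes over the 4 libraries were Fyco1, Comp, Clcc1, Mfng and Hirip3. Their root mean square distance from it was 0.0388 to 0.0526 on the centred log2 CPM scale. The fast genes lay further from their own mean, at 0.28 for Tnnt3, 0.38 for Tnni2 and 0.55 for Tnnc2. For the slow genes near genes were Bri3bp, Ccdc88a, Ralb and Rufy2, at 0.0187 to 0.0353, while Tnnt1 lay at 0.082, Tnni1 at 0.29 and Tnnc1 at 0.30. The named genes were picked for this nearness among all genes of that level.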

How the data were processed

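Per the labels' protocols, total RNA of dissected limbs was made into NlaIII tag libraries. The authors deposited raw counts per 17-base tag with a UniGene cluster and Ensembl gene; per the submitters' processing notes Bowtie and mm9 were used, with version and settings not given in the sources used here. Tags without gene or cluster (14.8% to 18.7% of a library's counts) stayed out of library sizes and tests. Counts were summed per gene. Names, positions and tag matches are from GENCODE M21 (GRCm38).

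Hindlimb was compared with forelimb in edgeR 4.0.16 (R 4.3.3): TMM, filterByExpr, quasi-likelihood test, Benjamini-Hochberg over 13718 genes at 0.05, no replicate block, 2 residual degrees of freedom. The p-values set the difference between limb types against the spread within them, estimated with information shared across genes. Without the offset they do not take in the GC gap between the limb types. Shares were compared as log2 ratios with 0.5 added to each count. Alternatives were other normalizations, DESeq2 1.42.0, no filter, other tag choices, a single random thinning to 1558607 counts, each library left out, a replicate block and the tag-sequence offset. The fits were tested on simulated data.

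Named are the 7 genes, Tnni3, tags with at least 20 counts, 2 genes per list (called with the smallest p, else the most abundant) and the 5 nearest profiles, of which 1 gene is not reported here. Genes and lists were chosen with earlier results of these data known.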

Additional observations from a re-analysis of the deposited data

Results flagged for a closer look

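Tags to which the deposited table gives no gene, and which no value above uses, also matched transcripts of the troponin genes. Any count there is a signal outside the main measurement, and there are no control samples to set it against. Sense matches held 98 counts for Tnni1, 15 for Tnnt1, 13 for Tnnc1 and 4 for Tnnt2. Those of Tnni1 were 29 and 9 in forelimb and 46 and 14 in hindlimb, most of them in the tag CATGtctatgccagatctttt. Antisense matches held 89 counts for Tnnc1, 37 for Tnni1, 29 for Tnnt1, 26 for Tnnt3, 22 for Tnni2, 21 for Tnnc2 and 5 for Tnnt2. The antisense counts of Tnnc1 were 28 and 21 in forelimb and 21 and 19 in hindlimb, while 16 of the 21 of Tnnc2 lay in hindlimb replicate 2. Each of these Tnnc2 tags also matched transcripts of 1 other gene in the sense direction. Their counts can therefore not be credited to Tnnc2. The antisense tags of the other members had no such match.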

How the results depend on the processing

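The number of troponin genes called was 1 and became 2 with DESeq2 (Tnnc2 and Tnnc1), 2 with the most abundant tag only and 2 after thinning (both Tnnc2 and Tnnt2) and 0 with the tag-sequence offset; without each library in turn it was 1 to 1. Over the alternatives the adjusted p ran from 0.0455 to 0.916 for Tnnc1 and from 0.0105 to 0.612 for Tnnt2. The log2 fold change of Tnnc2 ran from -2.003 to -0.99 and lost its call in 1 of 15 alternatives, the offset. Tnnt1 kept its sign and missed the threshold in all 15. The call count over all genes was 30 with the offset and 950 to 3900 without each library in turn: 1035 without forelimb 1, 950 without forelimb 2, 3900 without hindlimb 1 and 1034 without hindlimb 2. Signs turned for Tnni2, to -0.010 (RLE), -0.042 (library totals), -0.0095 (no filter), -0.018 (DESeq2), -0.76 (offset) and -0.064 to 0.055 without each library in turn; for Tnni1, to -1.13 (offset) and -0.022 to 0.56 without each library, negative without forelimb 1; and for Tnnt3, to 0.20 without hindlimb 1 (-0.79 to 0.20 without each library). The log2 ratio of fast to other forms turned in troponin T to -0.16 without forelimb 2 and -0.21 without hindlimb 2 (-0.21 to 0.47 without each library), and in troponin I to 0.56 (most abundant tag), 0.75 (last site) and 0.31 (offset). In troponin C it kept its sign, from -1.92 to -0.77. The cause of these shifts was not tested.

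The labels give no meaning to equal replicate numbers, and whether they mark shared animals is not known; deviations of same-numbered libraries correlated at -0.10 over genes. With the replicate block 1 troponin gene and 2151 genes in all were called, and Tnni2 stood at -0.0013. A crossed pairing, chosen after seeing the data, called 1 and 3170. Depth limits the 3′ exon tag of Tnnt3 and Tnni3, both at 2 counts or fewer in forelimb 2.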
